A study of Mus musculus with 2 samples.

Results

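Cajal-Retzius identity genes were followed here as a set of 5 genes, Reln, Trp73, Lhx1, Lhx5 and Calb2, which are commonly used together to recognise Cajal-Retzius cells (CRs). Each was found by its symbol as 1 row among the 28001 features of the septal explants and 1 row among the 32286 features of the telencephalic vesicle. Their raw UMIs (unique molecular identifiers, each standing for 1 captured mRNA molecule) were read per cell, and each library was described on its own. Cells were placed on the neuronal side when the summed UMIs of 6 neuronal genes (Tubb3, Stmn2, Dcx, Elavl3, Gap43, Mapt) exceeded those of 7 apical progenitor (AP) genes (Sox2, Hes1, Hes5, Vim, Nes, Fabp7, Slc1a3). Such cells are called N>A cells and numbered 1732 of 5372 cells (32.2%) in the septal explants and 2644 of 11707 cells (22.6%) in the vesicle.

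The study used single-cell RNA sequencing of the embryonic mouse forebrain as a map of normal expression. The septal library pooled explants around the septum from 8 PGKCre;Rosa26YFP embryos at E11.5 and 4 Dbx1Cre;Rosa26tdTomato embryos at E12.5, both kinds from 2 litters. The vesicle library pooled the telencephalic vesicle of 3 wild-type (WT) embryos labelled E12, again from 2 litters. For these embryos the paper gives an age of E11.5-E12. PGKCre is a widely active Cre that leaves YFP in recombined cells, and Dbx1Cre leaves tdTomato in cells that descend from Dbx1+ progenitors. The labels give the strain C57BL/6J for both libraries and call both genotypes wild-type, although the septal embryos carried Cre and reporter alleles. Embryos of a pool cannot be told apart, and in the septal explants age and genotype changed together. With 1 library per tissue there is no replicate, so no test between tissues or between cell groups was made. Intervals below are exact 95% intervals of a share (Clopper-Pearson) or of a summed count (Poisson) and cover counting error only.

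CRs are among the first neurons of the cerebral cortex. They arise at the borders of the pallium, among them the cortical hem, the septum and the ventral pallium (VP), and spread over the cortical surface. Reln encodes reelin, a large secreted glycoprotein that acts through the receptors Vldlr and Lrp8 and the adaptor Dab1 to position migrating neurons. Trp73 encodes p73, a transcription factor of the p53 family found in CRs of medial origin and also needed for multiciliated cells. Lhx1 and Lhx5 encode closely related LIM homeodomain transcription factors. Calb2 encodes calretinin, a calcium-binding protein present in CRs and in many other neurons. None of these genes is expressed by CRs alone.

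The libraries held 83103280 UMIs over 5827 barcodes in the septal explants and 194821794 UMIs over 14283 barcodes in the vesicle. After cells with an outlying mitochondrial share and predicted doublets had been removed, the median depth of a cell was 12859.5 UMIs in the septal library and 9032 in that of the vesicle. N>A cells were shallower than the other cells, with medians of 11003.5 against 14095 UMIs in the septal explants and 6773.5 against 10062 in the vesicle. Only 1 barcode was shared by both libraries. Clusters were made without the 5 genes and named from fixed marker lists that also left them out. A septal cluster of 163 cells and a vesicle cluster of 360 cells were called CR-like, each meeting 6 of 8 markers (Ebf2, Ebf3, Nhlh2, Cacna2d2, Barhl2 and Cxcr4). The vesicle cluster was led by genes of the multiciliation programme (Mcidas, Ccno, Foxj1, Gmnc) and by the cell cycle inhibitor Cdkn1a. An unnamed septal cluster of 54 cells, cluster 21, was led by the same kind of genes (Ccno, Shisa8, Mcidas, Foxj1). It was left without a name by the naming rules, so that the border between it and CR-like cells differs between the tissues.

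All 5 genes lie on autosomes of GRCm38, the assembly also called mm10. Reln spans chr5:21884454-22344702 on the minus strand with 15 annotated transcripts. Trp73 spans chr4:154056253-154140208 on the minus strand with 7 transcripts, and Lhx1 chr11:84518284-84525535 on the minus strand with 4. Lhx5 spans chr5:120431699-120441223 on the plus strand with 1 transcript, and Calb2 chr8:110137502-110168210 on the minus strand with 2. Antisense genes overlap exons of Reln (Gm10475, 246 bases), Trp73 (Trp73os, 554 bases) and Lhx5 (Gm27199, 69 bases). RefSeq places a pair of Trp73 starts 42702 bases apart. Counts from the 3′ end of transcripts do not separate transcripts by their start, so all Trp73 values below are for the gene.

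Promoter windows from RefSeq (GRCm38.p6) were available for 3 of the 5 genes, Reln, Trp73 and Lhx1, and the 250 bases before the start are shown because these genes were detected in the same cells. The Trp73 window is that of the internal start. The window of the distal start lay within an annotated exon and is not shown. On the other strand, the Trp73 window shown lies within Trp73os (chr4:154093479-154098353), and the Lhx1 window reaches into Lhx1os (chr11:84525660-84535831). Sequences run 5′ to 3′ on the minus strand, and capitals mark matches on either strand to a GC box (GGGCGG) or a CCAAT box (CCAAT).
Reln, chr5:22344706-22344955: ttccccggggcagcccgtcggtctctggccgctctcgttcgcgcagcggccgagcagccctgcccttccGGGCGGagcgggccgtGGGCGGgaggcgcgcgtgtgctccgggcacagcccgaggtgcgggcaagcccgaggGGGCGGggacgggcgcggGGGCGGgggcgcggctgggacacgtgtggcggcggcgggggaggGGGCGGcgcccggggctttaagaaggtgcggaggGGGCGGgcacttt
Trp73, chr4:154097174-154097423: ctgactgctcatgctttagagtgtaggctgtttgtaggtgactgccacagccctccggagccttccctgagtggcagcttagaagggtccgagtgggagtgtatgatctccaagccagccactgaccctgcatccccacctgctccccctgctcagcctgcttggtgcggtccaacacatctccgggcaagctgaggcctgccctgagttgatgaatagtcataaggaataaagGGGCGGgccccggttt
Lhx1, chr11:84525535-84525784: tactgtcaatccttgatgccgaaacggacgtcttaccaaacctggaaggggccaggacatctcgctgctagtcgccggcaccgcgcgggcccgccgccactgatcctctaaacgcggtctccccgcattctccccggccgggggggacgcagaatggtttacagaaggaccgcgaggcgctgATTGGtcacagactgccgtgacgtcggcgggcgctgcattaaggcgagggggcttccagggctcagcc
The windows were unlike each other in composition. Reln held 80.0% G and C and 37 CpG sites, Lhx1 64.8% and 26 sites, and the internal Trp73 window 58.4% and 6 sites, against a median of 52.4% G and C over 32851 windows of the same length. The GC box was found 6 times in Reln and 1 time in Trp73, and 32.7% of all windows held at least 1. The CCAAT box was found 1 time in Lhx1, against 33.8% of all windows. These boxes overlapped nowhere in the windows shown. The EBF palindrome, the E-boxes CAGCTG and CAGATG and the homeodomain motif TAATTA matched none of the windows shown and were held by 0.779%, 13.0%, 14.4% and 4.84% of all windows. A match is a description of the letters and not a site of binding.

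Reln was detected in 510 of 1732 N>A cells (29.4%, 27.3 to 31.7) of the septal explants and in 521 of 2644 (19.7%, 18.2 to 21.3) of the vesicle. Among cells with Reln the median was 2 UMIs in both libraries, with 1 UMI only in 48.8% and 38.6% of them. Trp73 was found in 218 septal (12.6%, 11.1 to 14.2) and 147 vesicle N>A cells (5.56%, 4.72 to 6.50), with a median of 3 UMIs. Few cells therefore held Trp73, but most of them held more than a single molecule. Lhx1 was found in 355 septal (20.5%, 18.6 to 22.5) and 389 vesicle N>A cells (14.7%, 13.4 to 16.1). Lhx5 was the most widely detected, in 812 septal (46.9%, 44.5 to 49.3) and 605 vesicle N>A cells (22.9%, 21.3 to 24.5). Calb2 was found in 511 septal (29.5%, 27.4 to 31.7) and 298 vesicle N>A cells (11.3%, 10.1 to 12.54). Its counts per cell were the most uneven, with a median of 6 UMIs and a highest of 75 in septal cells with Calb2, and a median of 3 and a highest of 90 in those of the vesicle.

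Mesenchyme-like cells, which should lack these genes, were taken as the level of stray signal. Smaller non-neural classes held more Lhx5 in the vesicle, in 6 of 72 macrophage-like (8.33%, 3.12 to 17.3) and 3 of 22 endothelial-like cells. The macrophage-like interval includes the 16.3% of cells outside N>A, so the stray level of Lhx5 depends on the class chosen. Mesenchyme-like cells were deeper than N>A cells, with medians of 16404 UMIs in the septal explants and 10959 in the vesicle. In the vesicle, 6 of 492 mesenchyme-like cells held Reln (1.22%), 2 held Trp73 (0.407%), 9 held Lhx5 (1.83%) and 5 held Calb2 (1.02%). Lhx1 was found in 0 of 492, which allows a share of up to 0.610% when the limit is taken as 3 counts, or 0.747% by the exact interval. In the septal explants only 44 such cells were present, of which 0 held Reln or Lhx1 (allowing up to 6.82% by 3 counts, or 8.04% by the exact interval), 1 held Trp73, 3 held Lhx5 and 4 held Calb2. The shares of N>A cells with each gene were above those of mesenchyme-like cells in both tissues, and thinning every cell to a fixed depth kept them so. At 8000 UMIs per cell, septal N>A shares were 24.7% for Reln, 12.3% for Trp73, 19.8% for Lhx1, 41.2% for Lhx5 and 29.4% for Calb2. At 3500 UMIs per cell, vesicle N>A shares were 14.8%, 4.75%, 11.3%, 15.3% and 9.17% in the same order. Outside N>A cells, septal Trp73 (1.02%) and Calb2 (5.41%) were below their mesenchyme-like shares of 2.27% and 9.09%, and vesicle Calb2 (0.982%) was below its share of 1.02%. These mesenchyme-like shares rest on 1 and 4 of 44 septal cells and 5 of 492 vesicle cells, and their exact intervals include the shares outside N>A cells. The shares outside N>A cells could therefore not be told from background, but were not shown to be background either. Vesicle Trp73 outside N>A cells (0.949%) was above its mesenchyme-like share of 0.407% but inside the exact interval of that share (0.0493 to 1.46). After thinning, vesicle Trp73 (0.420%) and Lhx1 (0.259%) outside N>A cells lay under the 0.758% that 0 of 485 mesenchyme-like cells allows. Taken over all cells outside N>A, septal Reln (6.04%) and Lhx1 (0.769%) lay under the limit that 0 of 44 allows. These pooled shares could therefore not be told from background. Taken by themselves, septal AP-like cells lay above that limit for Reln, with 133 of 948 cells positive (11.9 to 16.4%). Erythroid-like cells did so too, with 7 of 26 positive (11.6 to 47.8%). Of the 133 cells, 4 were N>A cells without Trp73. After thinning to 8000 UMIs, 61 of 847 septal AP-like cells held Reln (5.55 to 9.16%). This was not above the 9.03% that 0 of 39 thinned mesenchyme-like cells allows. The interval of thinned erythroid-like cells (5 of 26, 6.55 to 39.4%) included that limit. The thinning depths of 8000 and 3500 UMIs left out 510 septal cells, 214 of them N>A, and 1144 vesicle cells, 180 of them N>A.

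All 5 genes were at least 2-fold higher in N>A cells than in other cells of both tissues, where 14.7% of 13030 genes in the septal explants and 13.2% of 16613 genes in the vesicle passed that fold. Levels are given as UMIs of the gene per 1000000 UMIs (CPM), each read against the same gene in other cells. Lhx5 differed least, at 115 CPM (110 to 120) in septal N>A cells against 41.8 (40.2 to 43.6) in the others, or 2.75-fold, and at 68.1 against 23.2 CPM (2.93-fold) in the vesicle. In the vesicle Lhx1 stood at 58.0 against 0.856 CPM (67.8-fold) and Reln at 94.8 against 16.3 CPM (5.81-fold). After thinning, the Lhx1 share of vesicle cells outside N>A lay under its mesenchyme-like limit. For the remaining genes the pooled share of other cells with a UMI was not above that of mesenchyme-like cells, its exact interval or its limit. Their levels are therefore given without a fold and were not ranked. The exact intervals of septal AP-like and of septal erythroid-like cells lay wholly above that limit for Reln before thinning but not after it. In the septal explants Reln stood at 57.9 CPM (54.7 to 61.3) in N>A cells and 4.51 (3.98 to 5.10) in the others, Trp73 at 32.4 and 0.878 CPM, Lhx1 at 66.9 and 0.667 CPM, and Calb2 at 288 and 4.002 CPM. Calb2 stood at 81.2 and 0.693 CPM in the vesicle.

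**Figure D1:**
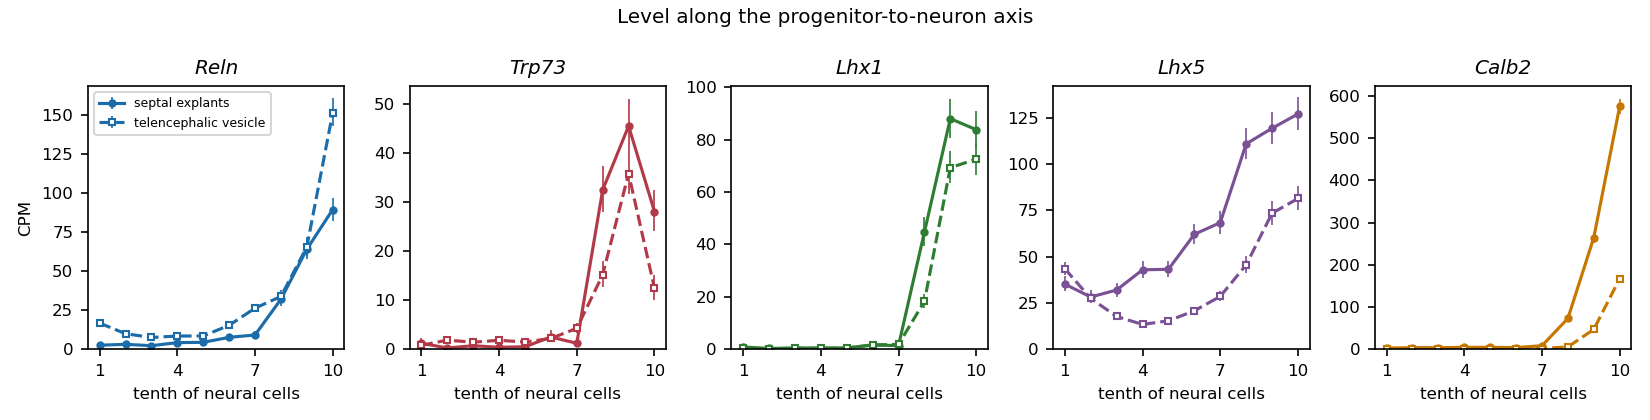
CPM of each gene (vertical axis, linear, own scale per panel) in 10 equal groups of the neural cells ordered from progenitor (1) to neuron (10) by the ratio of neuronal to AP gene UMIs; bars are Poisson intervals. Lhx5 is present from the first group, Lhx1, Trp73 and Calb2 are higher after the seventh, and Trp73 is lower in the last group than in the ninth.

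Cells were next ordered along the progenitor-to-neuron axis by the log2 ratio of neuronal to AP gene UMIs and cut into 10 equal groups, after non-neural, choroid plexus-like and shallow unnamed clusters had been left out. The 10 groups held 530 or 531 septal cells and 958 or 959 vesicle cells each. Lhx5 was already at 35.1 CPM (31.3 to 39.4) in the first septal group and climbed to 127 CPM (119 to 136) in the last. In the vesicle it fell from 43.5 CPM (40.1 to 47.0) in the first group to 13.3 (11.8 to 14.95) in the fourth before reaching 81.5 (75.2 to 88.1) in the last. Lhx1 did not exceed 1.55 CPM in the first 6 septal groups and stood at 1.33 in the seventh, then reached 44.6 CPM (39.4 to 50.4) in the eighth and 88.0 (80.8 to 95.7) in the ninth. Its last group, at 83.8 CPM (76.9 to 91.1), did not differ from the ninth beyond counting error. Trp73 went from 1.18 CPM in the seventh septal group to 32.4 (28.0 to 37.3) in the eighth and 45.4 (40.3 to 51.0) in the ninth. In the last septal group it was lower, at 28.0 CPM (24.1 to 32.4). The vesicle showed the same shape, with 15.1 CPM (12.7 to 17.9), 35.8 (31.5 to 40.4) and 12.4 (10.0 to 15.2) in its last 3 groups. Reln and Calb2 were highest in the last group of both tissues, where Reln reached 89.2 CPM (82.2 to 96.8) in the septal explants and 151 (143 to 160) in the vesicle. Calb2 reached 575 CPM (557 to 594) and 167 (158 to 176). The groups mix neuron types, so the order is one of neuronal against AP gene content and not of age within a lineage.

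**Figure D2:**
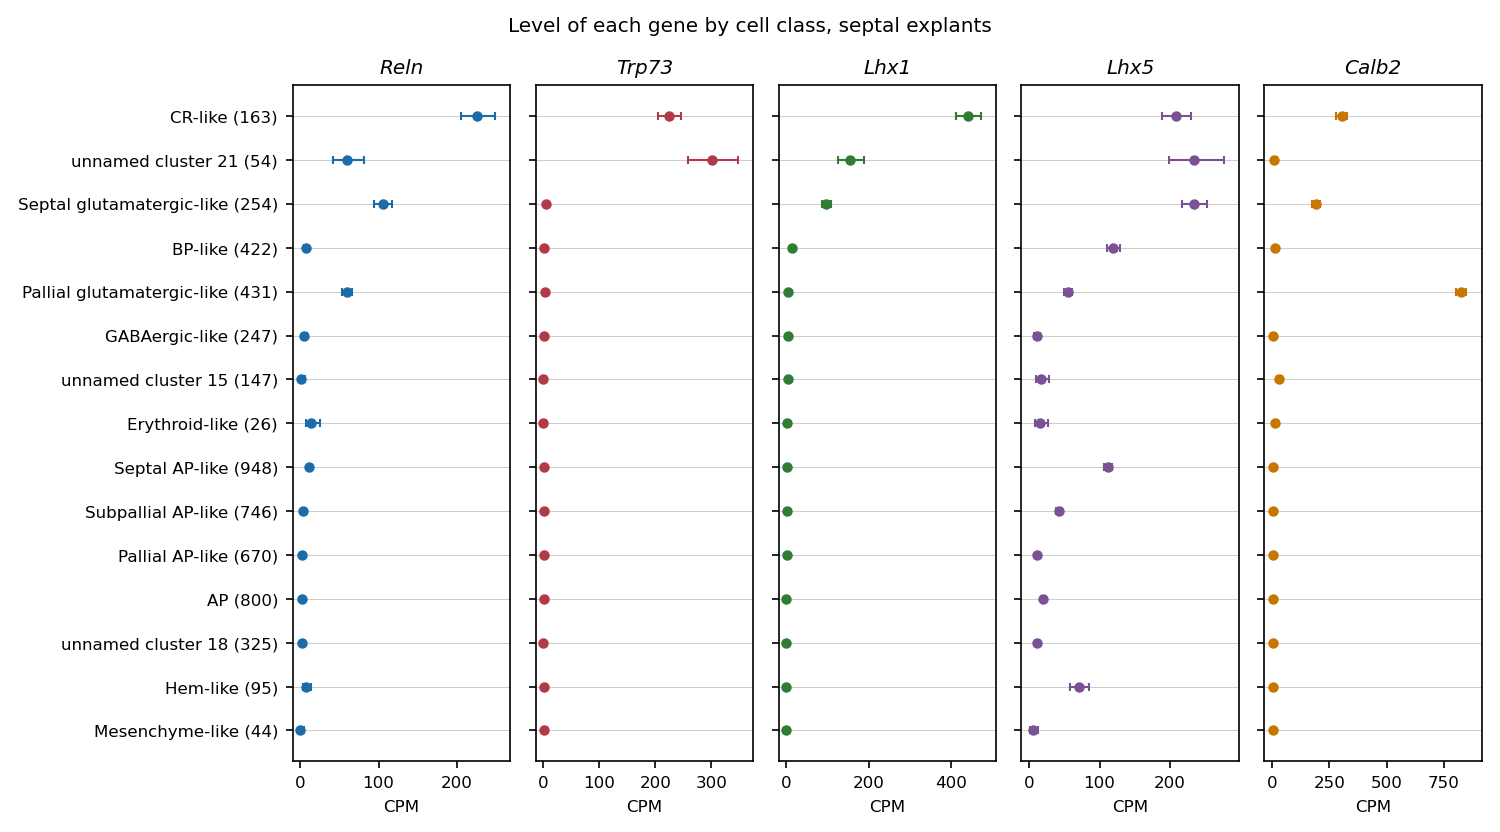
CPM of each gene (horizontal axis, linear, own scale per panel) in the cell classes of the septal explants, with the number of cells in brackets; bars are Poisson intervals. Reln and Lhx1 are highest in CR-like cells, Trp73 in CR-like cells and unnamed cluster 21, Lhx5 in 3 classes at about the same level, and Calb2 in pallial glutamatergic-like cells.

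Across cell classes of the septal explants, CR-like cells carried all 5 genes. The ranking of classes below depended in part on clustering. At a coarser resolution 588 cells were CR-like, Reln was highest in septal glutamatergic-like cells, and Trp73 and Calb2 were highest in CR-like cells. Trp73 was also highest in CR-like cells with predicted doublets kept and in all deposited barcodes. In the CR-like cells of the main clustering, Reln reached 227 CPM (206 to 249) and was found in 136 of 163 cells. Septal glutamatergic-like cells followed at 105 CPM (93.7 to 118), and pallial glutamatergic-like cells (59.6, 53.4 to 66.4) and unnamed cluster 21 (59.5, 41.9 to 82.0) did not differ beyond counting error. Reln stood at 11.01 CPM (9.31 to 12.9) in septal AP-like cells and 5.22 (2.85 to 8.75) in GABAergic-like cells. Trp73 was nearly limited to a pair of clusters. It reached 301 CPM (259 to 347) in unnamed cluster 21, with 50 of 54 cells positive, and 225 CPM (204 to 247) in CR-like cells, with 144 of 163 positive. The next class, septal glutamatergic-like cells, held 4.10 CPM (2.12 to 7.16). Lhx1 was highest in CR-like cells, at 441 CPM (412 to 471) with 149 of 163 positive, followed by unnamed cluster 21 at 154 (125 to 189) and septal glutamatergic-like cells at 97.0 (86.0 to 109). Lhx5 did not set CR-like cells apart. It stood at 235 CPM (218 to 253) in septal glutamatergic-like cells, 235 (198 to 276) in unnamed cluster 21 and 208 (189 to 230) in CR-like cells, whose intervals overlap. It was also present in progenitors, at 119.6 CPM (110.5 to 129) in basal progenitor (BP)-like cells, 112 (107 to 118) in septal AP-like cells and 70.4 (58.0 to 84.7) in hem-like cells. Calb2 was highest in pallial glutamatergic-like cells, at 825 CPM (801 to 849), and stood at 303 (279.5 to 329) in CR-like cells and 191 (176 to 208) in septal glutamatergic-like cells. In unnamed cluster 21 it was found in 5 of 54 cells, at 9.65 CPM (3.54 to 21.0), a share close to that of mesenchyme-like cells.

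Classes held clusters that differed in these genes. Among septal glutamatergic-like cells, cluster 27 (111 cells, led by Ppp2r2c, Gng8, Spon1 and Rasgrp1) held Lhx1 at 163 CPM (143 to 185) and Calb2 at 367 (337 to 399). Its neighbour, cluster 5 (143 cells, led by D930028M14Rik, Shox2, Onecut2 and Onecut3), held Lhx1 at 27.3 CPM (19.4 to 37.4) and Calb2 at 6.31. Reln hardly separated them, at 109.9 CPM (93.7 to 128) and 100.2 (84.5 to 118). In 30 of the 111 cells of cluster 27, a cluster with septal markers (Slc17a6, Zic1, Zic4, Zic5), Reln, Lhx1, Lhx5 and Calb2 were detected together without a Trp73 UMI. Of all 37 septal N>A cells with that combination, 5 were CR-like. Among pallial glutamatergic-like cells, cluster 6 (326 cells, led by Tfap2e, Cbln2 and Nxph1) held most of the Calb2, at 1058 CPM with 248 cells positive. Cluster 12 (105 cells, led by Neurod6, Pcp4 and Prdm8) held 127.7 CPM (109.7 to 148), with Reln at 70.6 (57.4 to 86.0).

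**Figure D3:**
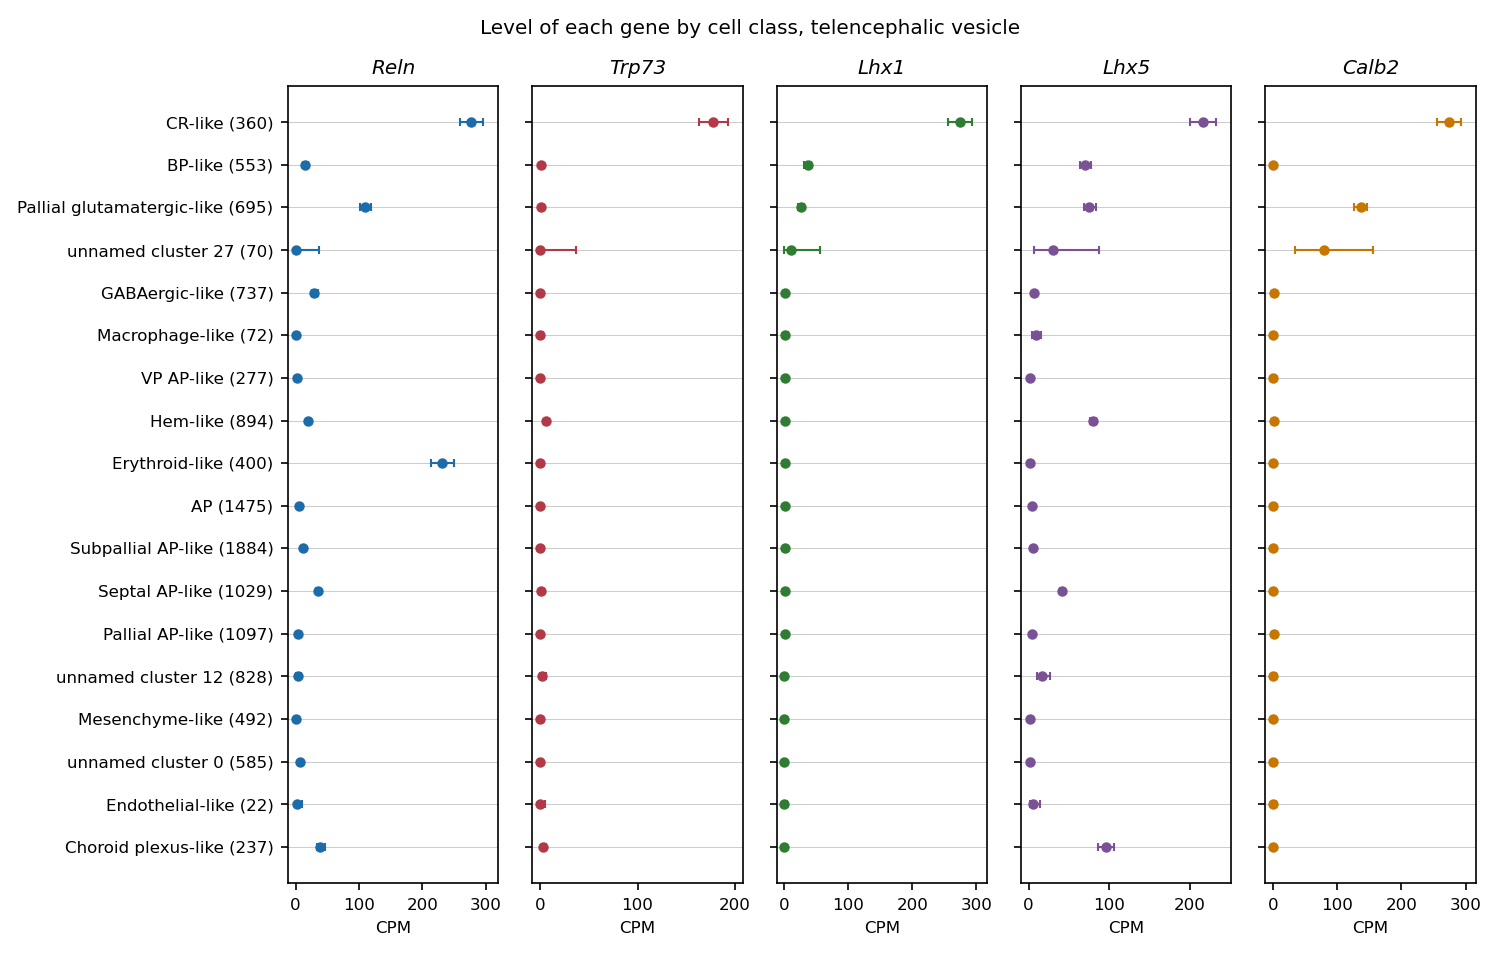
CPM of each gene (horizontal axis, linear, own scale per panel) in the cell classes of the telencephalic vesicle, with the number of cells in brackets; bars are Poisson intervals. CR-like cells are highest for all 5 genes, and Reln is nearly as high in erythroid-like cells, where the other 4 genes are near 0.

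In the vesicle, CR-like cells held the highest level of all 5 genes, a count that depended on how cells were clustered. It was 4 with another random seed and in all deposited barcodes, and 3 at a finer resolution or with cell cycle genes kept. It was 0 at a coarser resolution or with predicted doublets kept, where no cluster was named CR-like. Calb2 was highest in pallial glutamatergic-like cells at the coarser resolution, with cell cycle genes or predicted doublets kept, and in all deposited barcodes. Reln was highest in erythroid-like cells at the coarser resolution and with cell cycle genes kept. In the latter setting 728 cells were CR-like. In the CR-like cells of the main clustering, Reln reached 277 CPM (259 to 296) and Trp73 177 (163 to 192). Lhx1 reached 275 (257 to 293), Lhx5 216 (200.4 to 233) and Calb2 274 (256 to 292). Detection ran from 118 of 360 cells for Calb2 (32.8%) to 247 of 360 for Lhx5 (68.6%), at a median depth of 7008.5 UMIs. Chemistry and counting software also differed between the libraries, so neither levels nor detection were compared across them. After CR-like cells, Lhx1 was highest in BP-like cells (36.3 CPM, 31.5 to 41.7) and pallial glutamatergic-like cells (25.6, 21.5 to 30.2). Trp73 was next highest in hem-like cells, at 5.95 CPM (4.94 to 7.11), where 25 of 894 cells held 121 UMIs in all. Lhx5 was next highest in choroid plexus-like (95.6 CPM, 85.8 to 106) and hem-like cells (80.0, 76.2 to 84.0), both of medial origin. Hem-like clusters differed, with Lhx5 at 124 CPM (117 to 132) in cluster 15 and 47.7 (43.8 to 51.8) in cluster 19. Among pallial glutamatergic-like cells, cluster 2 (397 cells, led by Arpp21 and Nxph1) held Reln at 177 CPM (163 to 192) and Calb2 at 218 (203 to 235). Cluster 4 (298 cells, led by Sim1, Uncx and Nhlh2) held 7.41 and 13.0 CPM of them. Cluster 4 instead held more Lhx1, at 53.2 against 7.34 CPM, and more Lhx5, at 109 against 53.5 CPM. One GABAergic-like cluster, cluster 9 (163 cells), held Reln at 82.5 CPM (68.7 to 98.2), and another, cluster 14, at 12.03 (7.86 to 17.6). Reln also reached into progenitors, at 74.4 CPM (68.9 to 80.1) in the septal AP-like cluster 21 led by Fgf17, Pax5 and Fgf8, of whose 446 cells 226 held it.

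Reln in the vesicle had a source outside the nervous system. Erythroid-like cells held it at 232 CPM (214 to 249.8), with 254 of 400 cells positive (63.5%, 58.6 to 68.2) at a median depth of 5428.5 UMIs. After thinning to 3500 UMIs the share was 45.4% (40.1 to 50.7). The highest cell held 34 Reln UMIs. The other genes of the set were near 0 in these cells, with 0 Trp73 UMIs, 2 of Lhx1, 5 of Lhx5 and 1 of Calb2. Globin transcripts made up a median of 52.6% of UMIs in the Reln+ erythroid-like cells and 52.5% in those without Reln. The median sum was 0 UMIs for the neuronal genes and 1 for the AP genes in both kinds, and 6 of the 254 Reln+ cells held another gene of the set. Of the erythroid-like cells 59 counted as N>A, 39 of them with Reln, with medians of 1 neuronal and 0 AP gene UMIs. Leaving erythroid-like cells out raised the vesicle Reln difference between N>A and other cells from 5.81-fold to 7.003-fold. In the septal explants only 26 erythroid-like cells were present, of which 7 held Reln, at 13.7 CPM (6.58 to 25.2).

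**Figure D4:**
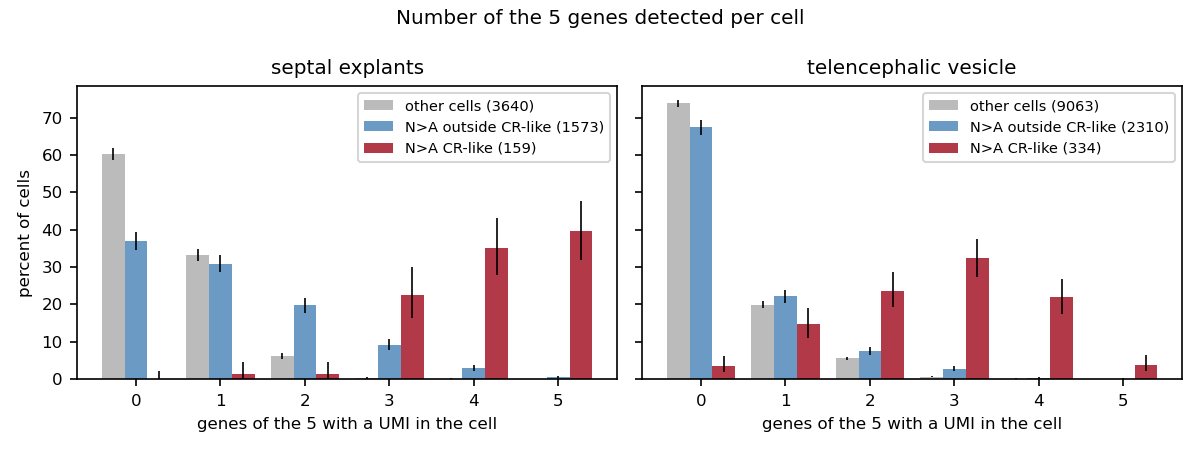
Percent of cells (vertical axis, linear) with UMIs of 0 to 5 of the genes, for cells outside N>A, N>A cells outside CR-like clusters and N>A CR-like cells, with cell numbers in brackets; bars are Clopper-Pearson intervals. CR-like cells are shifted towards 3 or more genes in both tissues, and the other groups towards 0 or 1.

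At least 2 of the 5 genes were detected in 663 of 1732 septal N>A cells (38.3%, 36.0 to 40.6) and 515 of 2644 vesicle N>A cells (19.5%, 18.0 to 21.0). All 5 were detected together in 70 septal (4.04%) and 14 vesicle N>A cells (0.530%). Of these, 63 and 13 were CR-like. No cell outside the N>A group held all 5, of 3640 septal and 9063 vesicle cells. In septal CR-like N>A cells 63 of 159 (39.6%, 31.96 to 47.7) held all 5 and 56 (35.2%) held 4. In those of the vesicle 13 of 334 (3.89%, 2.09 to 6.56) held all 5, 73 (21.9%) held 4 and 108 (32.3%) held 3. Outside CR-like clusters, 310 septal N>A cells held 2 of the genes, 143 held 3, 46 held 4 and 7 held all 5. Among the frequent combinations, Reln+Lhx5 (76 cells), Reln+Calb2 (74), Lhx5+Calb2 (72) and Reln+Lhx5+Calb2 (65) had no CR-like cell. In the vesicle, the most frequent combination of at least 2 genes was Lhx1+Lhx5 with 96 cells, of which 22 were CR-like, followed by Reln+Lhx5+Calb2 with 52 cells, of which 11 were CR-like.

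**Figure D5:**
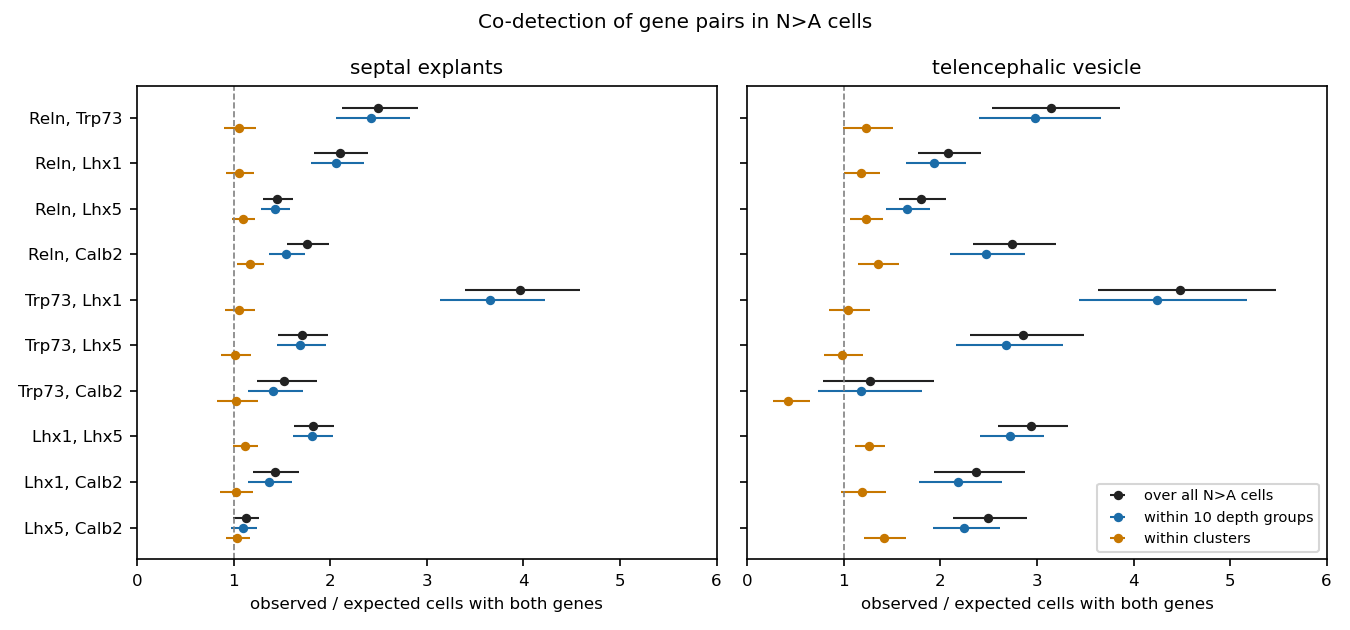
Observed over expected number of N>A cells with both genes of each pair (horizontal axis, linear; the dashed line marks 1), with expectation from all N>A cells, within 10 depth groups or within clusters; bars are Poisson intervals of the observed count. Trp73 with Lhx1 lies farthest to the right in both tissues, and within clusters most pairs lie near 1.

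Pairs of genes were then compared with the number of cells expected if each gene were spread independently over the N>A cells. The observed number had a lower counting bound above expectation for 9 of 10 pairs in each tissue. N>A cells mix neuron types, 14.3% and 27.6% of them GABAergic-like, and pairs of other genes were not counted in this way. The 9 of 10 is therefore given without a background share and is not read as particular to the set. Trp73 and Lhx1 were together most often relative to expectation, in 177 septal cells against 44.7 (3.96-fold, 3.40 to 4.59) and in 97 vesicle cells against 21.6 (4.485-fold, 3.64 to 5.47). Lhx1 was also held by 81.2% of septal and 66.0% of vesicle Trp73+ cells. Reln and Trp73 were together in 160 septal cells (2.49-fold, 2.12 to 2.91) and 91 vesicle cells (3.14-fold, 2.53 to 3.86). Lhx1 and Lhx5, the related LIM homeodomain genes, were together in 303 septal cells (1.82-fold, 1.62 to 2.04) and 262 vesicle cells (2.94-fold, 2.60 to 3.32). Of Lhx1+ cells, 85.4% and 67.4% held Lhx5 as well. The pair that missed was Lhx5 with Calb2 in the septal explants, in 269 cells (1.12-fold, 0.993 to 1.27). In the vesicle it was Trp73 with Calb2, in 21 cells (1.27-fold, 0.785 to 1.94). Within 10 groups of equal depth the count stayed at 9 of 10 pairs in each tissue. Within clusters 1 septal pair remained, Reln with Calb2 (1.17-fold, 1.03 to 1.32), and 5 vesicle pairs, with ratios from 1.18 for Reln with Lhx1 to 1.42 for Lhx5 with Calb2. Nearly all ratios within clusters were thus nearer to 1 than those over all N>A cells, that of Trp73 with Calb2 in the vesicle excepted. Within vesicle clusters Trp73 and Calb2 were found together less often than expected, in 21 cells against 49.6 (0.423-fold, 0.262 to 0.647), and within CR-like cells alone in 19 against 48.4 (0.393-fold, 0.236 to 0.613). Of the 334 vesicle CR-like N>A cells, 137 held Trp73. Of the 39 vesicle N>A cells with Reln, Lhx1, Lhx5 and Calb2 but no Trp73 UMI, 35 were CR-like. In the main clustering no vesicle cluster was named septal glutamatergic-like. With predicted doublets kept, a vesicle class had that name and held the highest Lhx5. Reln, Trp73 and Lhx1 were then highest in an unnamed cluster, and Calb2 in pallial glutamatergic-like cells. Whether the vesicle CR-like cluster mixes neuron types was not tested. In septal CR-like cells 143 of 159 held Trp73, so that Trp73 with Calb2 could hardly depart from expectation there and is not compared.

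Most Trp73+ N>A cells were CR-like, 143 of 218 (65.6%) in the septal explants and 137 of 147 (93.2%) in the vesicle. Septal unnamed cluster 21, which is not counted as CR-like, held 22 of the 160 Reln+Trp73+ and 26 of the 58 Reln-Trp73+ N>A cells. The other genes had lower CR-like shares than Trp73. Of Reln+ N>A cells 26.5% and 33.8% were CR-like, of Lhx1+ cells 42.0% and 57.6%, of Lhx5+ cells 16.9% and 38.5%, and of Calb2+ cells 17.4% and 39.6%. Cells with Reln were therefore split by Trp73. In the septal explants, 136 of 160 Reln+Trp73+ N>A cells held Lhx1 (85.0%, 78.5 to 90.1), against 83 of 350 Reln+Trp73- cells (23.7%, 19.4 to 28.5). In the vesicle, Lhx1 was found in 72 of 91 Reln+Trp73+ cells (79.1%, 69.3 to 86.9) and 87 of 430 Reln+Trp73- cells (20.2%, 16.5 to 24.3). Lhx5 followed in the same direction, at 81.2% against 62.0% in the septal explants and 65.9% against 36.0% in the vesicle. Calb2 did not, at 53.8% against 51.1% in the septal explants and, lower with Trp73, at 19.8% (12.2 to 29.4) against 33.3% (28.8 to 37.9) in the vesicle. By level, Calb2 was lower with Trp73 in both tissues. It stood at 321 CPM (297 to 346) against 588 (566 to 610) in the septal explants and 58.3 (42.0 to 78.7) against 253 (237 to 268) in the vesicle. Cdkn1a, which encodes the cell cycle inhibitor p21, was found in 96.9% of septal Reln+Trp73+ cells and 15.7% of Reln+Trp73- cells, and in 92.3% and 10.7% of those in the vesicle. Reln+Trp73- cells were mainly pallial (150 of 350) or septal glutamatergic-like (139 of 350) in the septal explants. In the vesicle they were pallial glutamatergic-like (155 of 430), CR-like (91), GABAergic-like (76) and erythroid-like (39). Gad2, which encodes a GABA-synthesising enzyme, was found in 24.9% (20.9 to 29.3) of vesicle Reln+Trp73- cells and in 2 of 91 Reln+Trp73+ cells. In vesicle N>A cells with neither Reln nor Trp73 it was more frequent, at 36.8% (34.7 to 38.9). The septal shares were 7.43% of Reln+Trp73- cells and 17.8% of cells with neither gene.

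Reporter transcripts in the septal explants separated embryos of different genotype and age only in part. Reln was found in 69 of 163 N>A cells with tdTomato (42.3%, 34.6 to 50.3), against 441 of 1569 without (28.1%, 25.9 to 30.4). Lhx1 was found in 48 (29.4%, 22.6 to 37.1) and 307 of them (19.6%, 17.6 to 21.6). The intervals of the other genes overlapped, at 13.5% (8.66 to 19.7) and 12.49% (10.9 to 14.2) for Trp73, 54.6% and 46.1% for Lhx5 and 28.2% and 29.6% for Calb2. Of the 163 cells with tdTomato, 40 also held YFP, a transcript of the other genotype. In the 123 without YFP, Reln was found in 43.1% (34.2 to 52.3) and Lhx1 in 27.6% (19.96 to 36.4), the latter overlapping the interval of cells without tdTomato. Of the N>A cells with tdTomato, 22 were CR-like (13.5%, against 8.73% of those without), and 18 of the 22 held Reln and 19 held Trp73. Cells with at least 3 YFP UMIs included 93 CR-like N>A cells. Dbx1 itself was found in 43 of 160 Reln+Trp73+ cells (26.9%, 20.2 to 34.4) and 81 of 350 Reln+Trp73- cells (23.1%, 18.8 to 27.9). It was found in 24 of 58 Reln-Trp73+ cells (41.4%, 28.6 to 55.1) and in 103 of 1164 cells with neither gene (8.85%, 7.28 to 10.6). Since tdTomato marks only the older embryos, lineage and age cannot be told apart here.

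The genes whose level across clusters was most like that of each member were ranked by the lower Pearson correlation (r) of log2(CPM + 1) over 29 septal and 28 vesicle clusters, among 10429 genes. These correlations describe clusters that share a library and are given without a test. Trp73 was most like Mcidas (r = 0.87 and 0.97), Ccno (0.86 and 0.97), Shisa8 (0.81 and 0.90), Foxj1 (0.81 and 0.87) and 1700007K13Rik (0.88 and 0.77). Mcidas, Ccno and Foxj1 act in the formation of multiciliated cells. Lhx1 was most like Lhx1os, a neighbour on the other strand that does not overlap it (0.94 and 0.93). Next were Uncx (0.84 and 0.90), Barhl2 (0.83 and 0.82), Rasgrp1 (0.81 and 0.77) and Nhlh2 (0.77 and 0.89). Lhx5 was most like Gm27199, whose annotation overlaps it on the other strand (0.90 and 0.89), and Epb41l4a (0.74 and 0.73), Igsf21 (0.75 and 0.72), Fezf1 (0.84 and 0.72) and Trim9 (0.70 and 0.75). Calb2 was most like Samd3 (0.91 and 0.97), Gm28050 (0.88 and 0.88), Tbr1 (0.87 and 0.87), Nxph4 (0.84 and 0.87) and Ndufa4l2 (0.83 and 0.86). Reln had the weakest partners, Scn9a (0.73 and 0.73), Hmgcll1 (0.76 and 0.68), Agpat4 (0.72 and 0.66), Nipa1 (0.72 and 0.65) and Clcn2 (0.84 and 0.65). The vesicle clusters include the erythroid-like one, with Reln at 232 CPM and the other genes of the set near 0. Its effect on these correlations was not tested. No gene of the set was among the 5 closest partners of another. The closest pair within the set was Trp73 with Lhx1, at 0.81 and 0.62.

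N>A cells with at least 2 of the 5 genes were compared with N>A cells holding none, 663 against 582 septal and 515 against 1569 vesicle cells, over lists of related genes. Among all other genes, 7.09% of 10416 in the septal explants and 5.17% of 11695 in the vesicle were at least 2-fold higher in the cells with at least 2 genes, and 3.53% and 2.4% were at least 2-fold lower. The median fold over all genes was 1.03 and 1.01. Of the CR-associated list, 9 of 14 genes measured in the septal explants and 11 of 15 in the vesicle were at least 2-fold higher and 0 were lower, with a median of 3.17 and 2.66. In the septal explants the largest were Cdkn1a (596 against 12.3 CPM, 48.5-fold), Ebf3 (7.21-fold), Cxcr4, a chemokine receptor (4.35-fold), and Tbr1, a T-box factor of pallial neurons (3.89-fold). In the vesicle they were Cdkn1a (227 against 4.91 CPM, 46.2-fold), Ebf3 (3.53-fold), Ndnf (3.39-fold) and Tbr1 (3.18-fold). The comparison was repeated without CR-like and non-neural clusters, in 505 against 578 septal and 240 against 1528 vesicle cells. There 5.21% and 2.9% of all genes were at least 2-fold higher and 3.41% and 2.15% lower, and 6 of 12 septal and 11 of 15 vesicle genes of the CR-associated list were higher. Cdkn1a was then 16.5-fold and 4.14-fold higher. Septal unnamed cluster 21, with 51 N>A cells and Cdkn1a among its leading genes, was not left out of this repeat.

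The p53 family and its targets gave 3 of 7 genes higher in the septal explants and 2 of 6 in the vesicle. Both counts include Cdkn1a, which is also in the CR-associated list. After Cdkn1a, Ccng1 was 4.12-fold and 3.17-fold higher, and Bbc3, a pro-apoptotic target, 2.63-fold higher in the septal explants and 1.74-fold in the vesicle. Trp53 itself stood at 127 against 182 CPM and 68.9 against 85.1 CPM. Of the LIM homeodomain genes and their partners, Lhx9 was higher (2.95-fold and 2.24-fold), as was Lmo2 in the vesicle (2.33-fold). In the same list 4 of 11 septal and 5 of 13 vesicle genes were at least 2-fold lower, led by Lhx8 (0.474 against 48.6 CPM) and Lmo3 (1.30 against 11.02 CPM) in the septal explants and by Lhx6 (0.848 against 40.6 CPM) and Lhx8 (8.26 against 174 CPM) in the vesicle. The shared cofactor Ldb1 stood at 107 against 106 CPM and 65.7 against 81.9 CPM.

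Of the genes of reelin reception and signalling, 0 of 10 septal and 0 of 11 vesicle genes were 2-fold higher, counts that lie near the shares of all genes and set the list apart in neither tissue. Dab1 was lower in the septal explants (6.87 against 16.2 CPM, 0.424-fold) and stood at 103 against 140.02 CPM in the vesicle. The receptors Vldlr (10.3 against 7.08 and 16.7 against 16.5 CPM) and Lrp8 (17.9 against 23.1 and 66.3 against 57.2 CPM) did not pass 2-fold. Of the calcium-binding genes, Calb1 was lower (0.0684-fold in the septal explants and 0.0958-fold in the vesicle), and 2 of 8 were higher in the vesicle, Hpcal1 (2.09-fold) and Necab2 (2.01-fold). Pallial glutamatergic markers were higher for 3 of 6 septal genes, Tbr1, Bhlhe22 (2.76-fold) and Slc17a7 (2.102-fold), and for 4 of 6 vesicle genes, led by Bhlhe22 (4.57-fold). Tbr1 is also in the CR-associated list. GABAergic markers were lower for 6 of 6 septal and 7 of 7 vesicle genes, with medians of 0.0271-fold and 0.0434-fold. The largest falls were those of Gad1 (1.42 against 67.7 CPM) and Dlx5 (7.46 against 297 CPM) in the septal explants and of Lhx6 and Gad1 (2.54 against 95.05 CPM) in the vesicle.

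Several of these counts were smaller without CR-like and non-neural clusters. The p53 list then gave 2 of 6 septal genes and 1 of 6 vesicle genes higher, with Ccng1 at 2.14-fold and 1.24-fold. Of the LIM list 1 of 11 septal and 0 of 13 vesicle genes were higher, with Lhx9 at 2.77-fold and 1.89-fold and vesicle Lmo2 at 1.42-fold. Of the calcium-binding genes 0 of 8 were higher in the vesicle, with Hpcal1 at 1.22-fold and Necab2 at 1.26-fold. Pallial glutamatergic markers were higher for 3 of 6 septal and 5 of 6 vesicle genes, and GABAergic markers were still lower for 6 of 6 and 7 of 7.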

How the data were processed

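The authors deposited, for each of 2 10x Genomics 3′ libraries, a matrix of raw UMI counts per gene and barcode. The submitters' processing notes name Cell Ranger 2.1.1 for the septal explants (kit v2) and 7.1.0 for the vesicle (kit v3.1), both with mm10. Whether intronic reads were counted is not given in the sources used here. Intronic counting, kit and depth all affect detection, so libraries were not compared by level.

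Cells within 3 median absolute deviations of the median mitochondrial share were kept (383 septal and 1812 vesicle barcodes left out), and Scrublet calls were removed (72, 1.32%, and 764, 6.13%). The septal call rate is low against the expected 4.36%, so doublets may remain. Counts were scaled to 10000, log-transformed and clustered (scanpy 1.11.5; 2000 variable genes, 30 components, 15 neighbours, Leiden resolution 1.5) without the 5 genes, cell cycle genes, reporters and sex-linked genes. A name needed at least 3 markers. After clusters were seen, a BP-like name was also made to need a BP marker among the 10 leading genes.

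Genes named were the 5 members, the 5 closest genes of each by cluster correlation (at least 200 UMIs per library), and up to 4 largest rises and 2 largest falls per list at 2-fold, over genes with at least 50 UMIs. Other list genes named with values, and Cdkn1a, Gad2 and Dbx1 in cells split by Reln and Trp73, were chosen after their values were seen. The members and lists were chosen with earlier results of these data known. The fold, pair and thinning steps were tested on simulated data. Alternatives covered cell filters, doublets, thresholds, depth and clustering.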

Additional observations from a re-analysis of the deposited data

Results flagged for a closer look

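A pair of added transgene sequences in the gene lists were used in no comparison. IRESCRE gave 25 UMIs in 23 of 5372 kept septal cells, above the limit of 3 counts, and LacZ gave 11 UMIs in 9 of 11707 kept vesicle cells, although the vesicle embryos were labelled wild-type. The cause was not tested.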

How the results depend on the processing

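No paired analysis was possible because each tissue has 1 library. The share of N>A cells with at least 2 genes was 38.3% in the septal explants and became 42.1% with N at least 2 times A plus 1, 24.0% with at least 2 UMIs per gene and 35.2% after thinning. In the vesicle it was 19.5% and became 21.3%, 11.9% and 14.9%. The 9 pairs above expectation in each tissue became 1 and 5 when expected within clusters and 7 and 6 without CR-like clusters. Septal unnamed cluster 21 was not left out there. Of the 75 septal Trp73+ N>A cells left, 22 with Reln and 26 without Reln were from that cluster. In CR-like clusters alone, where fewer cells remain, the pairs above expectation became 0 and 0. Reln, Trp73, Lhx1 and Lhx5 were each held by 135 to 149 of 159 septal CR-like N>A cells. Their pairs could therefore hardly exceed expectation there, and nothing is drawn from the septal 0. The 5 genes highest in vesicle CR-like cells became 0 at Leiden resolution 0.8 and 0 with Scrublet calls kept, where no cluster was named CR-like, and 3 at resolution 2.5 and 3 with cell cycle genes kept. Of 60 alternatives for single-gene shares, 40 stayed within the counting interval and 20 moved. Leaving out clusters was an alternative chosen after seeing the data. The 5 genes past 2-fold stayed 5 under every alternative run. Depth limits detection of low genes, and a cell without a UMI may still express the gene.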
